A study of Sus scrofa with 20 samples.

Results

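The genes described here encode respiratory chain complexes II, III, IV and V, together with cytochrome c, in the longissimus muscle of pigs. A gene was a member if the array platform's symbol for it began with SDH, UQCR, ATP5 or COX followed by a digit, or was CYC1 or CYCS, and each gene was read from its probe set of highest mean signal. The rule took 57 of the 47845 probe sets on the array, which named 31 genes of the 13755 named on the platform, and 30 of these passed the filter on dim signal. ATP5H, the d subunit of the stalk of complex V, was the member left out, with a mean log2 signal of 1.26. No probe set carried the symbols UQCRC1, UQCRC2, UQCRFS1, CYC1, COX4I1 or COX5A in the platform annotation used, so these core subunits were not analysed here.

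The study compared 10 female pigs of low residual feed intake (RFI) with 10 females of high RFI, all sampled from M. longissimus, with no treatment named in the labels. Residual feed intake is feed eaten above the amount predicted from body weight and growth, so a low value marks an efficient animal. Total RNA from each muscle was hybridised to 1 Affymetrix array, and the labels name no litter, breed, age or processing batch for the animals. Muscle RNA was measured in bulk, so fewer fibres of a type and less RNA per fibre cannot be told apart.

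The respiratory chain passes electrons to oxygen and stores the released energy as a proton gradient across the inner mitochondrial membrane. Complex II, which is also an enzyme of the citric acid cycle, feeds electrons from succinate into ubiquinone, complex III hands them to cytochrome c, and complex IV, cytochrome c oxidase, reduces oxygen. Complex V, ATP synthase, lets protons flow back through a rotating ring and makes ATP, and slow oxidative muscle fibres are known to hold more of this machinery than fast glycolytic fibres.

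Of the skeletal muscle markers, 12 of 13 tested lay above the mean signal of the 69 background control probe sets, 3.64 on the log2 scale. Between arrays the mean background control signal ran from 3.46 to 3.90. Low RFI arrays had a mean of 3.66 ± 0.16 and high RFI arrays one of 3.61 ± 0.13 (SD, n = 10 each). The 4 arrays of highest background stood apart, and 3 of them were low RFI (replicates 7, 9 and 10) and 1 was high RFI (replicate 9). Results that rest on them are given with and without them.

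Of the 31 members, 27 had a mean above the background control mean. CYCS, at 2.80, ATP5O, at 2.79, ATP5S, at 2.13, and ATP5H did not, and the values of these 4 genes say little about their RNA. The background control probe sets themselves ranged from 1.02 to 7.84. A place above or under their mean therefore does not settle whether a gene was detected. The levels of different probe sets are not comparable with each other, since each probe set has its own sensitivity, so only differences between animals are read from them.

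**Figure D1:**
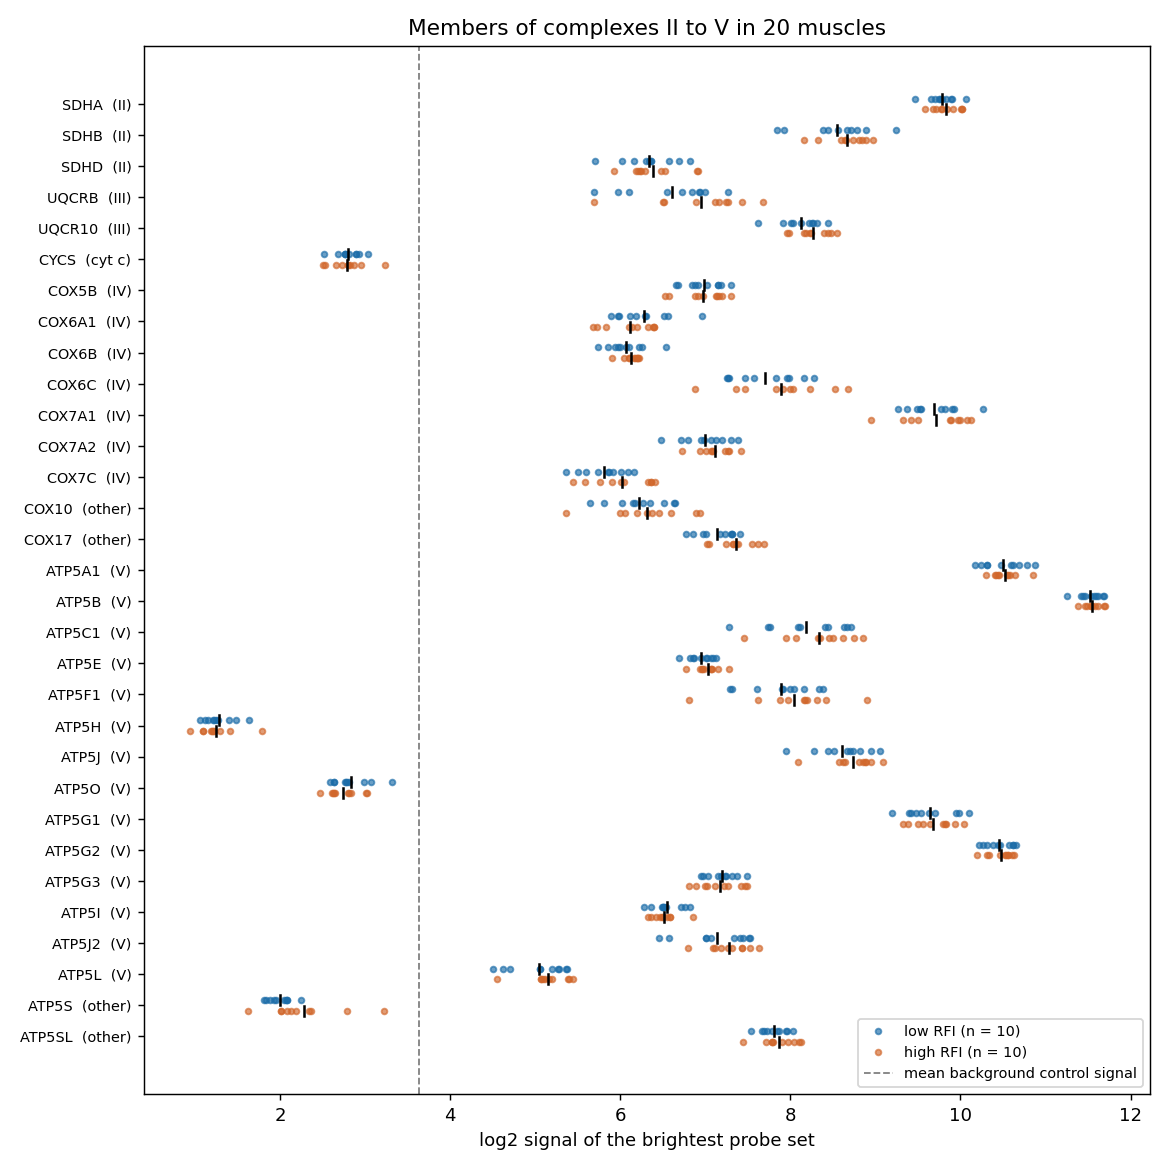
Log2 signal (horizontal axis) of the brightest probe set of each of the 31 members (vertical axis, complex in brackets), with 1 point for each animal, a black tick at the mean of each group of 10 and a dashed line at the mean background control signal of 3.64. The low and high RFI points overlap for every member, and CYCS, ATP5H, ATP5O and ATP5S lie left of the dashed line.

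No member differed between low and high RFI pigs after adjustment over all 33405 tested probe sets, and the ranges of the groups overlapped for all 31 members. In limma's moderated test 0 of 30 members passed an adjusted p of 0.05, 1 had an unadjusted p below 0.05, and the smallest adjusted p of a member was 0.998. Over all tested probe sets, 0% passed the adjusted threshold and 0% had groups that did not overlap, with a smallest adjusted p of 0.941. The signs leaned one way: 24 of the 30 members were lower in low RFI, against 49.2% of all tested probe sets and 55.9% of the 5112 named genes with a mean signal of at least 5. The median difference, low RFI minus high RFI, was -0.072 on the log2 scale, against 0.0024 over all tested probe sets and -0.018 over the named genes of that signal. Averaged over the tested members, low RFI animals had 7.25 ± 0.18 and high RFI animals 7.33 ± 0.11 (SD, n = 10 each).

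The lean in sign was not seen without the arrays of highest background. With those 4 left out, 15 of 30 members were lower in low RFI, the median difference was -0.0019, and no member had an unadjusted p below 0.05. With the background control signal as a covariate on all arrays, 23 members were lower and the median was -0.043. The interval around each difference was wide beside these medians: the 95% confidence interval extended 0.24 to either side at the median member, from 0.15 for ATP5B to 0.47 for UQCRB.

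**Figure D2:**
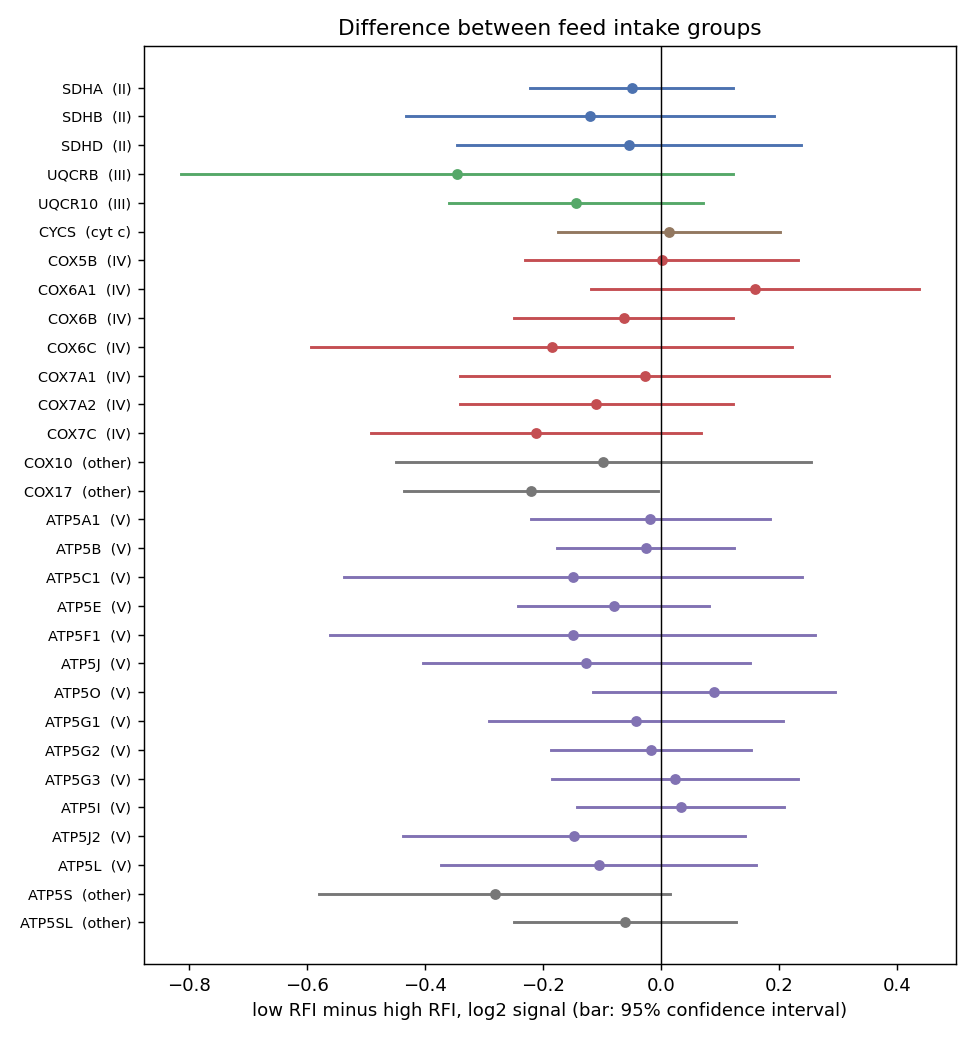
Difference in log2 signal, low RFI minus high RFI (horizontal axis), for the 30 tested members (vertical axis, complex in brackets), with points for the limma estimates and bars for their 95% confidence intervals, 10 animals a group. Most points lie left of 0, and the interval of COX17 alone excludes 0, before any adjustment.

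Complex II was read from 3 genes, all lower in low RFI on all arrays, with a median difference of -0.054. With the 4 arrays of highest background left out, SDHA differed by -0.028, SDHB by 0.035 and SDHD by 0.025. SDHA, the flavoprotein that oxidises succinate, had signals of 9.47, 9.77 and 10.06 (lowest, median and highest) in low RFI and 9.58, 9.81 and 10.01 in high RFI. It differed by -0.050 ± 0.083 (SE; limma, p = 0.556), and its 4 probe sets were all lower in low RFI and followed each other closely over the animals, with Pearson's r of 0.78 to 0.90 to the brightest. SDHB, the iron-sulphur subunit that takes electrons from SDHA, ranged more widely, from 7.84 over a median of 8.61 to 9.25 in low RFI and from 8.16 over 8.70 to 8.98 in high RFI. The low RFI group thus held both the lowest and the highest animal for SDHB, and the difference was -0.12 ± 0.15 (SE; limma, p = 0.433). Its 6 probe sets agreed less than those of SDHA, with r of 0.27 to 0.91 to the brightest, and 5 of them were lower in low RFI. A dimmer SDHB probe set, of mean 8.37, differed by -0.30 ± 0.14 (SE; limma, p = 0.0364, adjusted p = 0.998). The dimmest, of mean 5.65, differed by 0.16 ± 0.17 (SE). SDHD, one of the membrane anchors that bind ubiquinone, differed by -0.054 ± 0.14 (SE).

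Complex III was read from 2 small subunits, both lower in low RFI. UQCRB, a subunit that binds near the ubiquinone site, had signals of 5.68, 6.79 and 7.27 (lowest, median and highest) in low RFI and 5.69, 7.14 and 7.67 in high RFI. The lowest animals of both groups were alike, and they were low RFI replicate 9 and high RFI replicate 9, the arrays of highest background. UQCRB had the largest difference in size of the 30 members on all arrays, -0.35 ± 0.23 (SE; limma, p = 0.140, adjusted p = 0.998), and its lowest and highest animals differed 3.97-fold. The difference was -0.19 without the 4 arrays of highest background, -0.18 with background as a covariate and -0.24 without low RFI replicate 9. UQCR10, which sits beside cytochrome c1, differed by -0.14 ± 0.10 (SE; limma, p = 0.180). CYCS, the soluble carrier between complexes III and IV, differed by 0.014 ± 0.091 (SE) at a signal under background.

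Complex IV was read from 7 nuclear structural subunits, of which 5 were lower in low RFI on all arrays, with a median difference of -0.063. With the 4 arrays of highest background left out, COX7A1 was higher in low RFI instead, by 0.028. COX7C, a small subunit of the membrane part, had signals of 5.36, 5.86 and 6.16 in low RFI and 5.44, 6.03 and 6.41 in high RFI. Its difference of -0.21 ± 0.13 (SE; limma, p = 0.131) was the largest in size in this complex. COX6A1, the ubiquitous isoform of a subunit whose other isoform is typical of heart and skeletal muscle, had the largest difference in the other direction of all members on all arrays, 0.16 ± 0.13 (SE; limma, p = 0.247). It was 0.083 without low RFI replicate 6 and 0.20 without low RFI replicate 2. With the adipocyte score as a covariate it was 0.097, and without the 4 arrays of highest background 0.18. COX6A1 had signals of 5.88, 6.24 and 6.96 in low RFI and 5.68, 6.16 and 6.40 in high RFI.

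Of the isoform pair of subunit VIIa, COX7A1, the heart and muscle form, differed by -0.028 ± 0.15 (SE) and COX7A2, the ubiquitous form, by -0.11 ± 0.11 (SE). COX5B, a zinc-binding subunit on the matrix side, differed by 0.0014 ± 0.11 (SE), and COX6B, which lies near the docking site of cytochrome c, by -0.063 ± 0.090 (SE). COX6C differed by -0.19 ± 0.20 (SE), with a high RFI animal at the bottom of its range, 6.88, and another at the top, 8.68.

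The rule also took in 4 genes that are not subunits, all lower in low RFI, with a median difference of -0.16. COX17, the chaperone that brings copper to complex IV, had signals of 6.77, 7.21 and 7.41 (lowest, median and highest) in low RFI and 7.02, 7.35 and 7.69 in high RFI. The 3 highest animals for COX17 were high RFI and the 4 lowest were low RFI, while the groups overlapped in between. Low RFI replicates 10, 7 and 9, which are among the 4 arrays of highest background, were the lowest of all. With those 4 arrays left out, COX17 differed by -0.14, and no member had an unadjusted p below 0.05. COX17 was the member with an unadjusted p below 0.05, at -0.22 ± 0.10 (SE; limma, p = 0.0457, adjusted p = 0.998), where 1.43% of all tested probe sets were lower and 2.48% higher at that threshold. Its p was above 0.05 when low RFI replicate 3, 4, 7, 9 or 10 or high RFI replicate 1, 2, 3, 4, 5, 7 or 10 was left out, and without high RFI replicate 1, 2 or 4 ATP5S stood in its place. Without high RFI replicate 9 the count was 3, with UQCRB at -0.49, COX7C at -0.28 and COX17 at -0.25, and without low RFI replicate 2 it was 2, COX17 and ATP5S.

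ATP5S, known as coupling factor B, differed by -0.28 ± 0.14 (SE; limma, p = 0.0617), all of it under background. Its highest 2 values, 3.22 and 2.79, were high RFI replicates 7 and 10, and the remaining values of both groups lay between 1.63 and 2.36. COX10, the farnesyltransferase that makes haem O, the precursor of the haem A of complex IV, differed by -0.097 ± 0.17 (SE). ATP5SL, which in human acts in the assembly of complex I in spite of its symbol, differed by -0.061 ± 0.091 (SE).

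Complex V was read from 13 tested subunits, of which 10 were lower in low RFI on all arrays, with a median difference of -0.042. ATP5A1, ATP5B, ATP5C1, ATP5G1, ATP5G2 and ATP5L were higher in low RFI once the 4 arrays of highest background were left out. The F1 head and central stalk, where ATP is made, had 4 of 4 genes lower on all arrays. With those 4 arrays left out, ATP5A1 differed by 0.072, ATP5B by 0.041, ATP5C1 by 0.0065 and ATP5E by -0.043. ATP5B, the catalytic beta subunit, had signals of 11.25, 11.55 and 11.69 in low RFI and 11.38, 11.54 and 11.70 in high RFI. It differed by -0.026 ± 0.072 (SE; limma, p = 0.721) and had the smallest spread of the tested members, an SD of 0.12 over the 20 animals with a 1.36-fold ratio between the brightest and the dimmest. ATP5A1, the alpha subunit, differed by -0.018 ± 0.098 (SE), ATP5C1, the gamma subunit that turns inside the head, by -0.15 ± 0.19 (SE), and ATP5E, the epsilon subunit, by -0.080 ± 0.078 (SE).

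In the peripheral stalk, which holds the head still, ATP5F1, the b subunit, differed by -0.15 ± 0.20 (SE) and ATP5J, coupling factor 6, by -0.13 ± 0.13 (SE). ATP5O, the subunit that ties stalk to head, differed by 0.090 ± 0.099 (SE) under background. ATP5F1 had the widest span of all members, 4.26-fold between its brightest and dimmest animal, both of them high RFI. The 3 genes ATP5G1, ATP5G2 and ATP5G3 encode the same mature c subunit of the rotating ring, and they differed by -0.042 ± 0.12, -0.017 ± 0.082 and 0.024 ± 0.10 (SE). Among the membrane subunits of the e, f and g type, which hold ATP synthase dimers together, ATP5I differed by 0.033 ± 0.085, ATP5J2 by -0.15 ± 0.14 and ATP5L by -0.11 ± 0.13 (SE).

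More members passed the test on the background control signal of the arrays than on feed intake. In a limma fit with the RFI group as a covariate, 10 of the 30 members fell as background rose and 0 rose, or 33.3% falling, against 14% falling and 8.1% rising over all tested probe sets. Among named genes with a mean signal of at least 5, 29% fell and 7.12% rose, so the members' share lay near that of other genes of such signal. UQCRB had the steepest slope, -3.44 ± 0.38 (SE; limma, adjusted p = 1.74e-06) in log2 signal per log2 unit of background control signal. It was followed by ATP5F1 at -2.78 ± 0.42, ATP5C1 at -2.69 ± 0.37 and COX6C at -2.44 ± 0.50 (SE). Averaged over its 4 tested probe sets ATP5C1 had a slope of -1.28, and its 3 dimmer probe sets had r of -0.26 to 0.48 to the brightest.

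SDHB, ATP5J, ATP5L, SDHD, ATP5J2 and COX17 were the other members that fell, with slopes of -1.81 to -1.16. With its 4 tested probe sets averaged, ATP5J had a slope of -0.51, which did not pass the test. The slopes of the remaining 20 members lay between -0.84, for ATP5A1 (limma, adjusted p = 0.0540), and 0.86, for COX10, and none passed the test. ATP5E was among them, with a slope of -0.060 at its brightest probe set. A dimmer ATP5E probe set, of mean 4.19, had a slope of -2.72 (limma, adjusted p = 0.0108). With its tested probe sets averaged, ATP5E passed the test. Within single complexes the slopes split: SDHB at -1.81 stood beside SDHA at 0.53, COX6C at -2.44 beside COX7A1 at 0.84, and ATP5C1 at -2.69 beside ATP5B at -0.21. The differences between those slopes were not tested. The dimmer SDHB probe sets had slopes of -1.96 and -1.32, which passed the test, and of -1.165, -0.66 and -0.0050, which did not. Without the 4 arrays of highest background 0 of 30 members passed the limma test and 9 had an unadjusted p below 0.05. Of these, UQCRB, ATP5F1, ATP5C1, COX6C, SDHD and ATP5S had negative slopes, while SDHA at 1.31, COX5B at 2.25 and COX7A1 at 2.59 had positive ones. The slope of UQCRB was then -2.78 (limma, adjusted p = 0.0549) and that of SDHB -0.63.

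All 10 members that fell with background were lower in low RFI, with a median difference of -0.15, which was -0.036 with background as a covariate. Mean background was 3.66 in low RFI and 3.61 in high RFI. The 10 were chosen by their fall with background, so their direction and its change with the covariate follow in part from that choice. Of the other 20 members 14 were lower, with a median of -0.035, which was -0.056 with the covariate. What the background control signal stands for in these muscles was not tested.

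**Figure D3:**
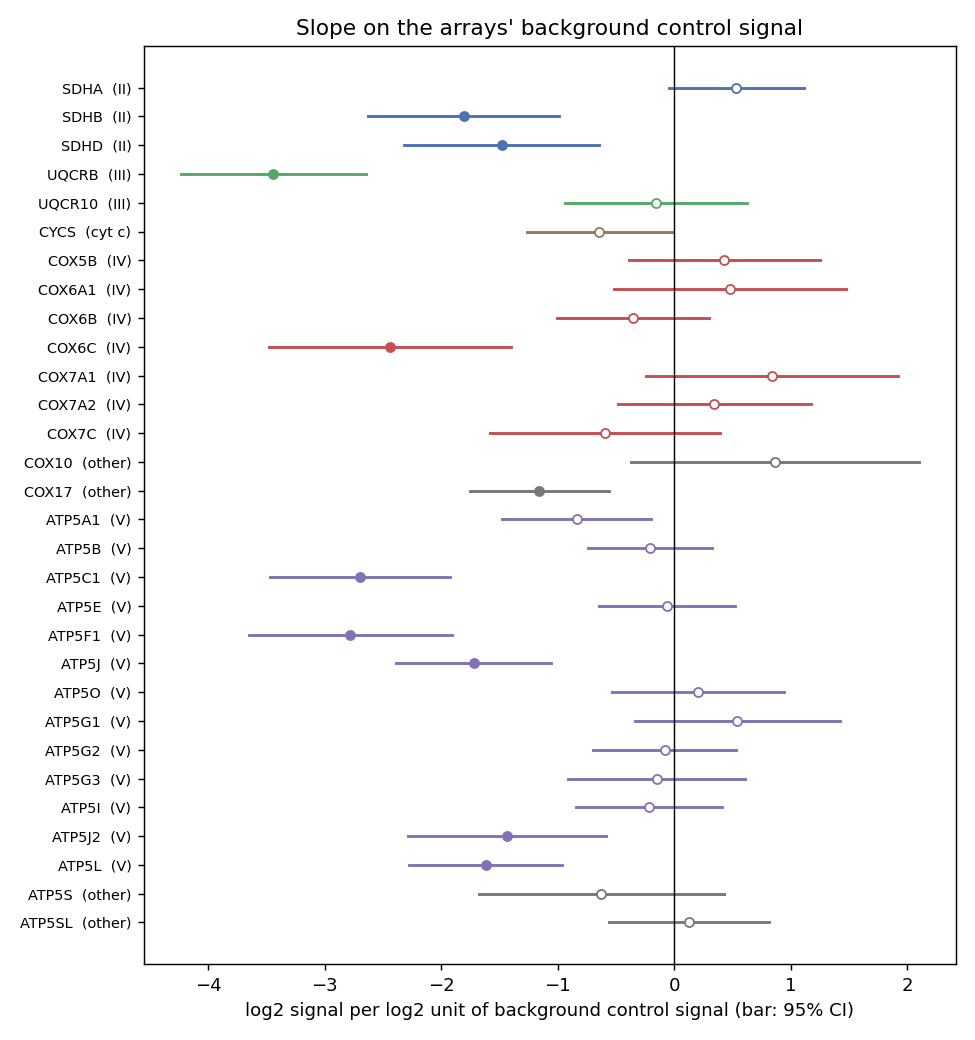
Slope of log2 signal on the mean background control signal of the array (horizontal axis, log2 per log2 unit, RFI group in the fit) for the 30 tested members (vertical axis, complex in brackets), with 95% confidence intervals over 20 arrays. UQCRB, ATP5F1, ATP5C1 and COX6C lie farthest to the left, at -3.44 to -2.44, while SDHA, COX7A1 and COX10 lie right of 0.

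The members also differed in how closely they followed each other from animal to animal. Over the 435 pairs of tested members, Pearson's r over the 20 animals had a median of 0.25 and ranged from -0.58 to 0.94. The median was 0.11 after cyclic loess between arrays. These correlations are descriptions without a test, since all members share the same 20 arrays and their background. Subunits of complex V had a median r of 0.43 over 78 pairs, those of complex IV with 0.13 over 21 pairs and those of complex II with -0.094 over 3 pairs. Pairs within one complex had a median of 0.35 and pairs from different complexes 0.29, while a subunit and one of the 4 genes that are not subunits had 0.077. With the RFI group and the background signal removed, these 3 medians were 0.45, 0.33 and 0.065.

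**Figure D4:**
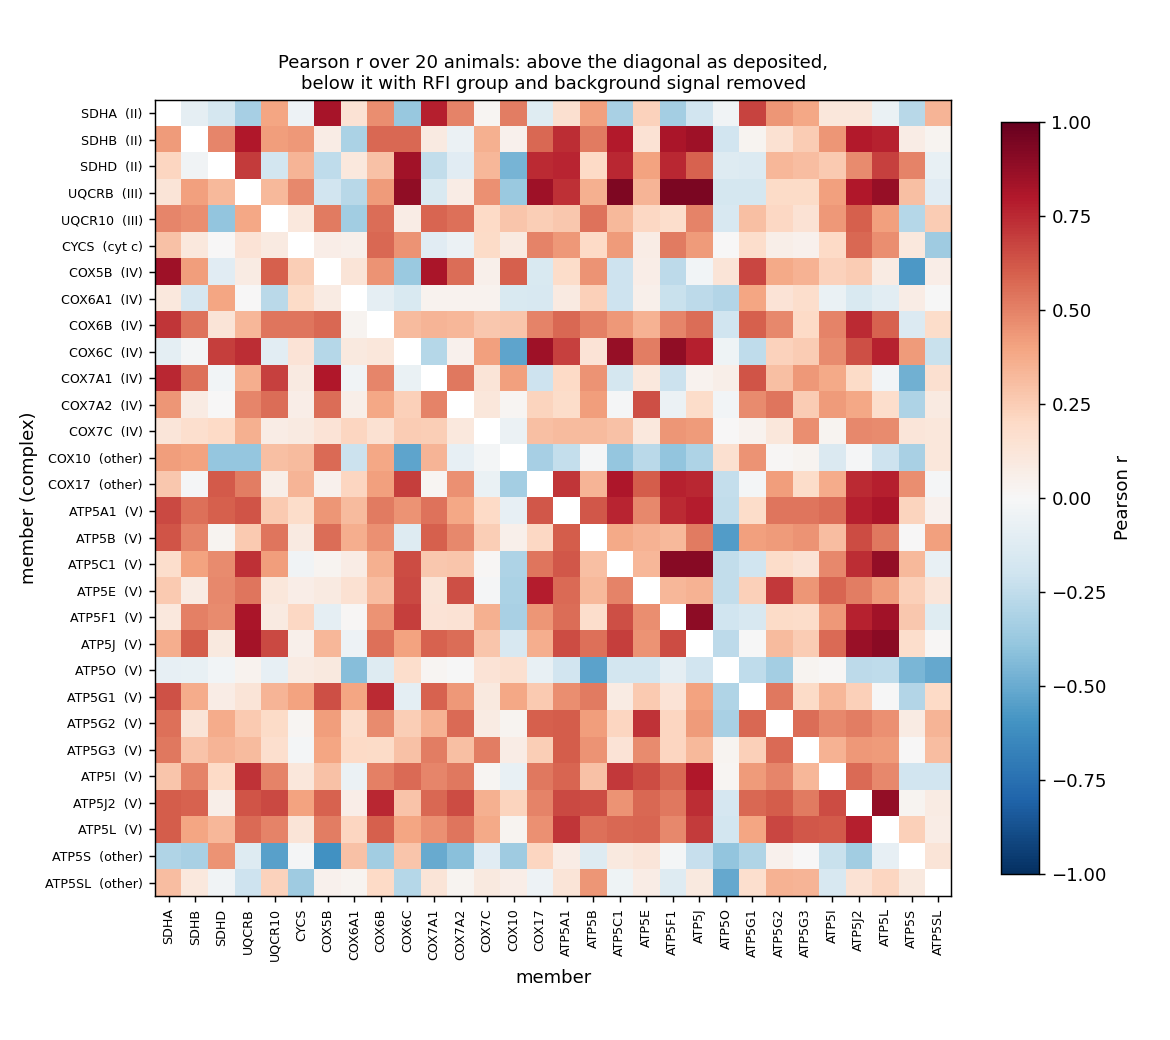
Pearson's r over 20 animals for each pair of the 30 tested members (both axes, complex in brackets on the vertical axis), above the diagonal as deposited and below it with RFI group and background signal removed, coloured from -1 (blue) to 1 (red). UQCRB forms dark red cells with ATP5C1, ATP5F1 and ATP5J above the diagonal, and SDHA, COX5B and COX7A1 stay red on both sides.

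One set of members that moved together crossed complexes II to V and was made of genes that fell with background. UQCRB followed ATP5J with r = 0.94 (Spearman's rho 0.92, r = 0.90 without the 2 animals farthest from the UQCRB median). Its r was also 0.94 with ATP5F1 and 0.94 with ATP5C1, and 0.89 with COX6C. These values hold for the brightest probe sets. Of the 4 tested probe sets of ATP5J, the dimmer ones had r of -0.36 to 0.81 to the brightest. SDHB followed ATP5J with r = 0.85 and UQCRB with r = 0.80, and SDHD followed COX6C with r = 0.84. With RFI group and background removed, UQCRB had r of 0.83 with ATP5J, 0.81 with ATP5F1, 0.73 with ATP5C1 and 0.74 with COX6C, and the 3 values of SDHB and SDHD were 0.61, 0.41 and 0.69. Median r among the 10 members that fell with background was 0.80, and 0.51 after that removal. Among the 20 members not called on background it was 0.19, and 0.22 after the removal. The 10 were chosen by their fall with background, so a high r as deposited follows in part from that choice.

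SDHA, COX5B and COX7A1 formed another set, with background slopes of 0.53, 0.43 and 0.84 that did not pass the test on all arrays. Under cyclic loess SDHA passed it, rising by 1.13 (limma, adjusted p = 0.00358), and without the 4 arrays of highest background all 3 slopes were positive at an unadjusted p below 0.05. SDHA followed COX5B with r = 0.82 (rho 0.84, r = 0.79 without the 2 animals farthest from the SDHA median) and COX7A1 with r = 0.78. COX5B followed COX7A1 with r = 0.82. With RFI group and background removed the same 3 values were 0.84, 0.75 and 0.80. ATP5G1 of complex V, with a background slope of 0.54, also followed SDHA, COX5B and COX7A1, with r of 0.68, 0.67 and 0.63. After the removal its values were 0.64, 0.65 and 0.59. The catalytic pair of complex II split between the sets: SDHA and SDHB had r = -0.094 as deposited and 0.43 after the removal. SDHA and UQCRB had r = -0.33 and then 0.13.

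ATP5J2, ATP5L, ATP5A1 and ATP5J, all of complex V, followed the mean of the other members most closely, with r of 0.93, 0.90, 0.88 and 0.86. ATP5O at -0.29, COX10 at -0.18, COX6A1 at -0.13 and ATP5SL at 0.040 followed it least, ATP5O with a signal under background. The 3 genes of the c ring agreed only in part, with r of 0.53 between ATP5G1 and ATP5G2, 0.56 between ATP5G2 and ATP5G3 and 0.19 between ATP5G1 and ATP5G3. The largest SDs over the animals were those of UQCRB, 0.56, COX6C, 0.47, ATP5F1, 0.47, and ATP5C1, 0.44, which are the 4 genes of steepest background slope. The smallest were those of ATP5B, 0.12, ATP5E, 0.14, ATP5G2, 0.15, and SDHA, 0.15, against a median of 0.28 over all tested probe sets. A dimmer probe set of ATP5E, of mean 4.19, had an SD of 0.61.

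Slow fibre content was read as the mean of 12 slow fibre genes, among them MYH7, the slow myosin heavy chain, and TNNI1, the slow troponin I. All 12 were lower in low RFI, against 49.2% of all tested probe sets, none with an unadjusted p below 0.05. Low RFI animals scored 8.75 ± 0.45 and high RFI animals 8.89 ± 0.41 (SD, n = 10 each). The score followed background with r = -0.43, and -0.12 without the 2 arrays farthest from the background median. It followed the mean of the members with r = 0.50, and the mean of 12 fast fibre genes did so with r = 0.57. After removal of RFI group and background the 2 values were 0.29 and 0.19. In a limma fit with RFI group and background signal as covariates, 0 of 30 members passed the test on the slow fibre score. Over all tested probe sets 0.0629% did. At an unadjusted p below 0.05, 4 members had a positive slope and 0 a negative one, against 5.1% with a positive slope over all tested probe sets, and 21 of 30 slopes were positive, against 46.9% of all tested probe sets and 56.9% of named genes with a mean signal of at least 5.

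COX7A1 had the steepest slope on the slow fibre score, 0.52 ± 0.16 (SE; limma, p = 0.00395, adjusted p = 0.346), and it ranged from 0.42 to 0.64 as single arrays were left out. COX7A1 was lowest, at 8.95, in high RFI replicate 7 and highest, at 10.26, in low RFI replicate 5. COX7A2, the ubiquitous isoform, had a slope of 0.031 ± 0.15 (SE), and the difference between the slopes of the 2 isoforms was not tested. The other members at that threshold were SDHB at 0.34 ± 0.13, ATP5J at 0.27 ± 0.11 and UQCRB at 0.31 ± 0.13 (SE), with limma adjusted p of 0.428, 0.444 and 0.463. Each of these 3 also fell with background, and without background in the fit their slopes were 0.53, 0.46 and 0.74 while that of COX7A1 was 0.31. With all tested probe sets of a gene averaged, the slope on the slow fibre score was 0.16 for ATP5J and 0.62 for COX7A1.

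**Figure D5:**
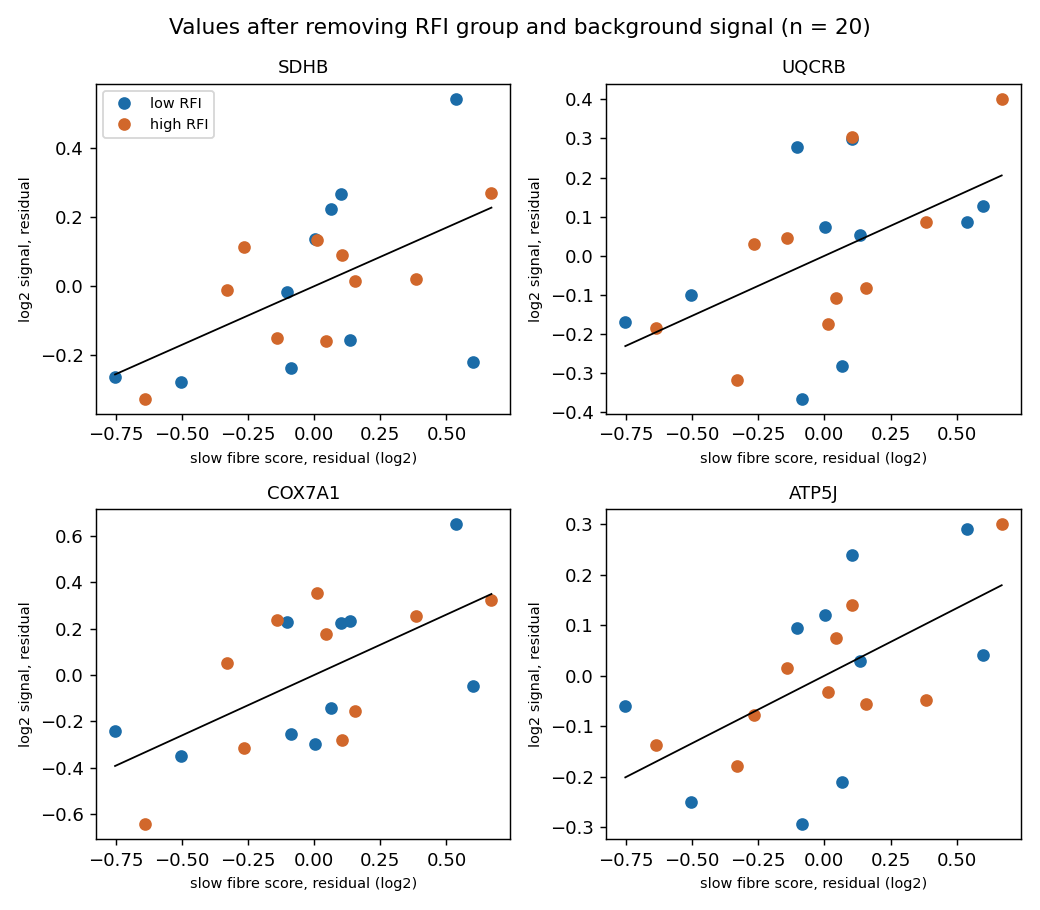
Log2 signal of SDHB, UQCRB, COX7A1 and ATP5J (vertical axes) against the slow fibre score (horizontal axes, log2), each as the residual after removing RFI group and background control signal, with 1 point for each of the 20 animals and a line at the limma slope. The line is steepest for COX7A1, at 0.52, and neither group forms a cluster of its own.

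On a score of 14 adipocyte markers, with the same covariates, 0 of 30 members passed the limma test, where 0.153% of all tested probe sets did. COX6A1 was the 1 member with an unadjusted p below 0.05, with a slope of 0.42 ± 0.15 (SE; limma, p = 0.0133, adjusted p = 0.897) per log2 unit, where 2.42% of all tested probe sets had a positive slope at that threshold. The adipocyte score itself lay between 5.62 and 6.87 in low RFI and between 5.59 and 6.80 in high RFI.

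Of the markers of other cells, those of adipocytes, macrophages and fibroblasts were mostly higher in low RFI. Of 14 adipocyte markers 11 were higher in low RFI, with a median difference of 0.13 and 0 at an unadjusted p below 0.05. Of 9 macrophage markers 8 were higher in low RFI, 4 of them at an unadjusted p below 0.05, and their mean lay between 5.07 and 5.71 in low RFI and between 4.88 and 5.41 in high RFI. Of 10 fibroblast markers 9 were higher in low RFI, 2 at that threshold, with means of 7.54 to 7.92 in low RFI and 7.33 to 7.95 in high RFI. Over all tested probe sets 2.48% were higher in low RFI at that threshold. In limma none of these markers passed the adjusted threshold. The 2 macrophage markers under background, LYZ and MSR1, were among the 4, with LYZ at the smallest p of the list, 0.00823 in limma, and 1 of the 10 fibroblast markers also lay under background. Endothelial markers were lower in low RFI for 6 of 10 and higher for 4, and red blood cell markers lower for 2 of 5 and higher for 3, 4 of those 5 at or under background. Their part in the difference between the groups was not tested.

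Other genes of the same pathway showed the same kind of values. Of 13 tested genes for other subunits and for the assembly of complexes III to V, 10 were lower in low RFI with a median of -0.11, and 0 passed the limma test or had an unadjusted p below 0.05. Among them, LRPPRC, which stabilises mitochondrial messenger RNAs, differed by -0.38 ± 0.29 (SE), and ATPIF1, the inhibitor of ATP synthase, by -0.11 ± 0.13 (SE). Their mean followed that of the members with r = 0.82 (rho 0.76, r = 0.75 without the 2 animals farthest from the median), and r = 0.60 with RFI group and background removed. For 26 complex I subunits the same correlation was 0.94 (rho 0.94, 0.91 without 2 animals) and 0.89 after the removal. With background, the mean of the 13 genes had r = -0.80, that of the complex I subunits -0.74 and that of the members -0.68.

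Of 16 tested regulators of nuclear mitochondrial genes, 14 were lower in low RFI and 0 passed the limma test. Over all tested probe sets 49.2% were lower, and the regulators were not counted without the 4 arrays of highest background. TFAM, which packages mitochondrial DNA, was the 1 with an unadjusted p below 0.05, at -0.40 ± 0.12 (SE; limma, p = 0.00328, adjusted p = 0.998). At that threshold 1.43% of all tested probe sets were lower in low RFI. The mean signal of TFAM, 3.80, lay near the background control mean of 3.64. PPARGC1A, the coactivator of mitochondrial biogenesis, differed by -0.46 ± 0.34 (SE). The mean of the regulators followed the members with r = 0.57 (rho 0.44, r = 0.35 without 2 animals) and followed background with r = -0.88, and with RFI group and background removed its r with the members was -0.23.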

How the data were processed

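Longissimus muscle of 20 female pigs, 10 of low and 10 of high RFI by their labels, was measured on 1-colour Affymetrix Snowball arrays. The authors deposited 1 log2 value for each probe set and array, and that scale was inferred from how far the values range. Per the submitters' processing notes GCOS 1.1.1 was used, and background correction, summarisation and normalization are not given in the sources used here, so values were tested as they stood. The array medians lay between 2.79 and 2.89. Genes were named from the platform annotation, which can be old, and 21419 probe sets had no single symbol there. P-values set each difference or slope against the spread between these arrays, 1 for each animal, and the number of animals limits the precision.

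Probe sets with a mean above 1.75, the 30th percentile of those that are no control, were tested with limma 3.58.1 in R 4.3.3 (lmFit, eBayes, 2-sided), with Benjamini-Hochberg adjustment over all 33405 and a threshold of 0.05, and the fits were tested on simulated data. Background control signal is the mean of 69 control probe sets, and scores are means over listed genes at their brightest probe sets. Figures were drawn with matplotlib 3.10.9. The members, the lists and the tests were chosen with earlier results of these data known. Named were, per complex, up to 5 members of smallest p, core and isoform members, the 4 of largest and smallest SD, the 4 that followed the other members most and least, and members past a threshold on a score. The other members were named so that each is accounted for. The alternatives were filters, scaling, cyclic loess, array weights, robust eBayes, all probe sets of a gene, covariates and leaving out arrays.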

Additional observations from a re-analysis of the deposited data

Results flagged for a closer look

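In 3 of the 64 groups examined (each member and the mean over members, in low and in high RFI) 1 of the 10 animals lay far from the rest by Dixon's criterion, which chance alone reaches in about 1 of 20 groups. For ATP5J, coupling factor 6 of ATP synthase, high RFI replicate 9 lay at 8.09 with the next animal at 8.57 and the group median at 8.83. For ATP5L, subunit g, the same animal lay at 4.55 with the next at 5.07 and a median of 5.14. That array had a background control signal of 3.89, the highest of its group, and both genes fell with background; without it their differences were -0.20 and -0.17. For ATP5I, subunit e, high RFI replicate 1 lay at 6.86 with the next animal at 6.59 and a median of 6.50; its background control signal was 3.66, and without it the difference of ATP5I was 0.071.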

How the results depend on the processing

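In all 11 alternatives to the RFI fit and all 20 fits without 1 array, 0 members passed, and the same held for the slow fibre and adipocyte scores in their alternatives. The count of members at an unadjusted p below 0.05 was 0 without the 4 arrays of highest background and with background, slow fibre or adipocyte covariates, and 0 to 3 without single arrays. Members lower in low RFI numbered 15 without those 4 arrays, otherwise 20 to 25, and 20 to 26 without single arrays, with median differences of -0.10 to -0.049. Members called on background numbered 0 without the 4 arrays, 10 or 11 in the other alternatives and 9 to 11 without single arrays; the call of ATP5J2 was lost without low RFI replicate 9 or 10 or high RFI replicate 9 (limma, adjusted p up to 0.0610), that of COX17 under cyclic loess, where SDHA was called instead, and that of ATP5J over all its probe sets, 1 of which had a slope of 1.02. The slope of ATP5J2 was 0.26 without the 4 arrays. Median pair correlation was 0.11 under cyclic loess and 0.22 to 0.28 without single arrays.

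Some differences changed sign, none past the test. Without the 4 arrays they were SDHB 0.035, SDHD 0.025, COX7A1 0.028, ATP5A1 0.072, ATP5B 0.041, ATP5C1 0.0065, ATP5G1 0.0013, ATP5G2 0.039 and ATP5L 0.013. With background as covariate they were SDHD 0.019, COX5B -0.020 and ATP5A1 0.023, with the slow fibre score COX7A1 0.017 and ATP5A1 0.016, and with the adipocyte score COX5B -0.011. With arrays centred on their medians COX5B was -0.0090. Cyclic loess gave COX7A1 0.0038, ATP5A1 0.015, ATP5B 0.0078 and ATP5G2 0.016, and array weights gave ATP5A1 0.0028, ATP5B 0.0056 and ATP5G2 0.0019. The mean of all probe sets gave COX5B -0.053, COX7A1 0.0065 and ATP5G3 -0.078. Without single arrays the ranges were ATP5A1 -0.059 to 0.019, ATP5B -0.045 to 0.0039, ATP5G1 -0.094 to 0.0066, ATP5G2 -0.048 to 0.0088, ATP5G3 -0.017 to 0.059, COX5B -0.049 to 0.037, COX7A1 -0.11 to 0.020, CYCS -0.018 to 0.064 and SDHD -0.11 to 0.016. The cause was not tested. No paired analysis was possible because the labels give the groups no shared replicate numbers. Members under background (CYCS, ATP5H, ATP5O, ATP5S) are limited by signal.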

Other observations

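Among 12122 named genes that are no member, those whose log2 signal followed the mean of the 30 tested members most closely over the 20 animals were largely mitochondrial. SLC25A12, an aspartate and glutamate carrier of the inner membrane, had r = 0.90, SLC25A4, the muscle carrier that exchanges ADP for ATP, r = 0.89, ATPIF1, the inhibitor of ATP synthase, r = 0.89, and IMMT, a scaffold of the cristae, r = 0.88. PDHA1, PGK1, CDC26, MDH1, ACAA2 and PRDX3 followed with r of 0.86. Among these PGK1, a glycolytic enzyme, CDC26, a part of the anaphase-promoting complex, and MDH1, the cytosolic malate dehydrogenase, are not mitochondrial. With RFI group and background removed, the closest were FBXO7 with r = 0.84, NDUFA9, a complex I subunit, with r = 0.82 and SLC25A12 with r = 0.82. These correlations rank genes over shared arrays and carry no test.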
